A study of Mus musculus with 32 samples.

Results

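Transcripts of the oligodendrocyte lineage were followed in microglia sorted from the injured and the non-injured mouse cortex. The set held 32 genes, picked by symbol from 55385 gene IDs, and all 32 were found and passed the filter on low counts. By role, 11 encode proteins of the myelin sheath or of the myelinating cell's membrane and cytoskeleton, 11 encode enzymes and secreted or soluble proteins of oligodendrocytes, 3 are lineage transcription factors, 4 mark premyelinating cells and 3 mark oligodendrocyte precursors. Microglia are the resident macrophages of the brain, so these are genes named for another cell lineage and measured in a microglial sort. Which cells their transcripts came from was not tested.

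The cells were EYFP-positive and came from the cortex of heterozygous Cx3cr1CreER mice on the C57BL/6 background, which received tamoxifen for 5 days at 8 to 10 weeks of age before a cortical stab wound. Every group carried the Cre allele and the tamoxifen. Cx3cr1 drives the Cre in microglia and also in other macrophages and in blood monocytes. Injured libraries came from the wound, and non-injured libraries from the matching place in the opposite hemisphere of wounded mice, so no unwounded animal served as a control. Cells were taken 1, 4, 7 and 14 days after the wound from females and males, which with the side makes 16 groups. Each had 2 deposited columns, which the labels call biological replicates but which differed by about counting noise. They were summed to 16 libraries, or 8 pairs in which the wound side is set against the other side of the same day and sex. The labels share no animal identifier, and p-values measure the spread between these libraries.

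Oligodendrocyte precursors carry the PDGF alpha receptor and the NG2 proteoglycan, and pass through a premyelinating stage before they wrap axons. Mature cells then make large amounts of sheath proteins under the control of Sox10 and the Olig factors. Mbp and Mobp mRNA are carried into the myelin itself and translated there, while Mog and Mag are membrane proteins translated in the cell body. Microglia take up myelin debris after a lesion.

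The promoters of 3 genes are shown because they belong to members that changed in opposite directions with injury, the sheath genes Mobp and Tppp and the precursor gene Cspg4. They are RefSeq sequences of GRCm38.p6, running from 250 bases before the start to 50 bases after it, on the plus strand. Capitals mark matches on either strand to ACAAAG, a core bound by SOX factors.
Mobp (chr9:120149492-120149791): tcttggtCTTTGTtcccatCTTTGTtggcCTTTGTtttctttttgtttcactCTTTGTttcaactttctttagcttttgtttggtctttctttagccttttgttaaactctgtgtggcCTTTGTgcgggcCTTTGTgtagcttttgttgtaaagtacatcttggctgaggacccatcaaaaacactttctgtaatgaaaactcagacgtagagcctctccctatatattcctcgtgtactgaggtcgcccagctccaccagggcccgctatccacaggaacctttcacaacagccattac
Tppp (chr13:74009169-74009468): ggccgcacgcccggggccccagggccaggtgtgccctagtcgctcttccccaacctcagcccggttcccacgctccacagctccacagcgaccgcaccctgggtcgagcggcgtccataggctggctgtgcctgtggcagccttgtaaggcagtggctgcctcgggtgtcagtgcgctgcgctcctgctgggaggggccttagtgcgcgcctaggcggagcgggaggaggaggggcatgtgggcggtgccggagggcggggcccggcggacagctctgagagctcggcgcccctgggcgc
Cspg4 (chr9:56864854-56865153): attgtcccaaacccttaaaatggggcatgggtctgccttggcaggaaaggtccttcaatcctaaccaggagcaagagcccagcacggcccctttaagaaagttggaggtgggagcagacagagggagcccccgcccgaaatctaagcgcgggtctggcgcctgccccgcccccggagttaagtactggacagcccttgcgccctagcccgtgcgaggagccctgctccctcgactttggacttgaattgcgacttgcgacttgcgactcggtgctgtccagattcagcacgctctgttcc
The Mobp window held 6 matches, all on the opposite strand, at positions -243, -231, -221, -198, -132 and -120 from the start. The Tppp and Cspg4 windows held 0 matches to ACAAAG, and all 3 windows held 0 matches to ACAATG or to the E-box CAGCTG. Of the 22 members with a promoter in the table, 6 held ACAAAG, against 18.7% of 27025 mouse promoters of the same length. ACAATG was in 4 of the 22, against 12.8% of all promoters, and CAGCTG in 4, against 16.1%. No promoter was found there for Sox10, Mbp, Bcas1, Car2, Cryab, Olig1, Fa2h, Gpr17, Enpp2 or Trf.

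Libraries held 20863982 to 55378788 counts and 14737 to 40975 detected genes. The microglia label was met by the summed level of 10 microglial markers, 12541 to 46285 CPM (counts per 1000000) in injured and 11357 to 61275 CPM in non-injured libraries. The 32 members together came to 5.45% to 26.0% of that microglial sum in injured libraries and to 4.43% to 56.3% in non-injured libraries. The day 4 male pair stood apart. Its injured library was the highest injured library for 25 of the 32 members, its non-injured library the highest non-injured library for 16, and that non-injured library also held 9641 CPM of 12 neuronal markers, 6895 CPM of 10 astrocyte markers and 25.7% mitochondrial counts. At the other end was the day 14 female pair, whose injured library had 5 members and whose non-injured library had 12 members at 0 counts, where 3 counts would be 0.118 and 0.123 CPM.

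Across the time course, 4 of the 32 members fell at the wound and 1 rose when the injury effect was averaged over the 4 days, while 15.7% of all 28597 genes tested were called (7.96% lower and 7.76% higher), by edgeR's quasi-likelihood test with Benjamini-Hochberg adjusted p under 0.05. The 4 that fell were the sheath genes Tppp, Mobp and Mbp and the transcription factor Olig1, and the gene that rose was the precursor gene Cspg4. The share called among the members was close to that among all genes. The median log2 change over the members was 0.24, against -0.32 over all genes tested, with 19 members above 0 and 13 below. On the TPM scale, limma called 7 members lower and 0 higher, within 3279 genes lower and 1092 higher, against 2277 lower and 2219 higher in edgeR.

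**Figure D1:**
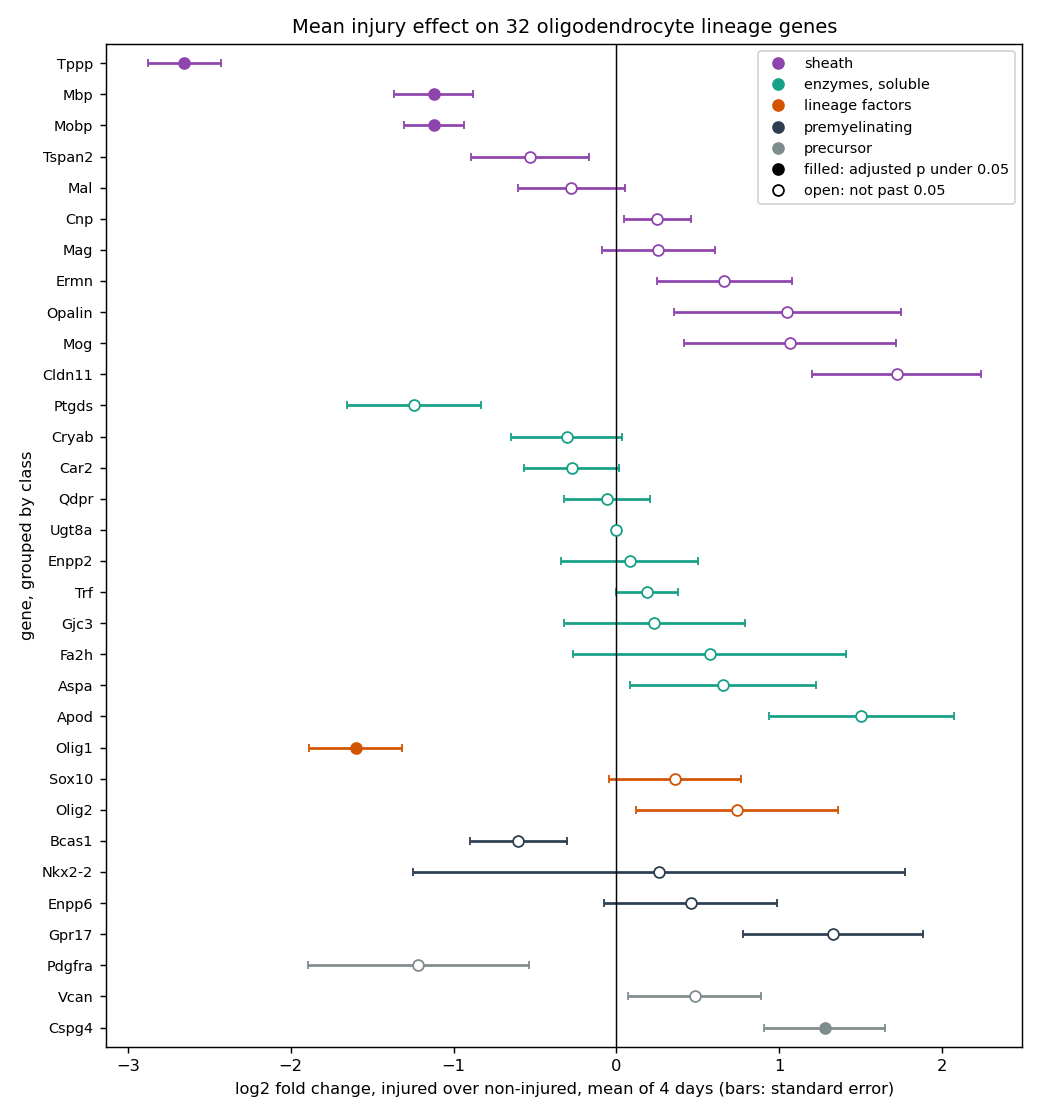
Log2 fold change, injured over non-injured, averaged over 4 days, for each of the 32 genes on the vertical axis, grouped and coloured by class, with standard errors as bars and filled points where the adjusted p was under 0.05. Tppp, Mobp, Mbp and Olig1 are the filled points left of 0, and Cspg4 is the filled point right of 0. The bar of Ugt8a was not drawn because its estimate of -0.0034 was very near 0, where this standard error is not reliable. It came to 0.14, while the standard errors of Ugt8a at days 1, 4, 7 and 14 were 2.04, 0.87, 0.88 and 1.43.

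Tppp, which encodes a protein that promotes tubulin polymerisation in myelinating oligodendrocytes, was the most regular of the members. It lies on chromosome 13 at 74009407 to 74035753 on the plus strand (GRCm38, GENCODE M21). In the injured libraries it measured 11.5 and 10.9 CPM at day 1 (female, then male), 35.4 and 21.5 CPM at day 4, 10.7 and 7.83 CPM at day 7 and 11.97 and 16.9 CPM at day 14. In the non-injured libraries it measured 85.9 and 72.7 CPM at day 1, 146 and 189 CPM at day 4, 54.7 and 81.1 CPM at day 7 and 61.5 and 87.3 CPM at day 14. All 8 injured libraries lay below all 8 non-injured ones, which held for 1 of the 32 members and for 0.143% of all genes tested, while the reverse order held for 0 members and 0.234% of genes. Tppp was also the only member lower in all 8 pairs, as were 4.07% of all genes, and 0 members but 5.11% of genes were higher in all 8.

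The fall of Tppp averaged -2.65 on the log2 scale (SE 0.22, adjusted p = 0.000232). It was called at day 1 (-2.82, SE 0.45, adjusted p = 0.0293), at day 4 (-2.58, SE 0.44, adjusted p = 0.0284) and at day 7 (-2.85, SE 0.46, adjusted p = 0.0476). At day 14 the estimate was -2.36 with an adjusted p of 0.0903, which missed the threshold. The mean effect was called under all 17 alternatives, between -2.81 and -2.52. Without the day 1 female, day 1 male, day 7 female, day 7 male or day 14 male pair, the calls at days 1, 4 and 7 were lost. The call at day 4 was also lost without the day 4 male pair. In each of these cases fewer of all genes were called at that day than in the full fit. Leaving out 1 pair moved the Tppp estimate between -2.96 and -2.68 at day 1, -3.04 and -2.04 at day 4, and -3.37 and -2.35 at day 7. The summed neuronal markers were likewise lower in the injured library of all 8 pairs, 24.2 to 427 CPM in injured against 117 to 9641 CPM in non-injured libraries, and 11 of the 12 fell in the mean effect. The median log2 ratio of the 10 microglial markers was also below 0 in all 8 pairs. Their sum was lower at the wound in 6 pairs and higher in 2, and in the mean effect 5 fell and 2 rose. The part of either marker set in the Tppp result was not tested. The non-injured day 14 female library held Tppp at 61.5 CPM, with neuronal markers at 287 CPM and microglial markers at 61275 CPM. Of the other sheath genes it held Mog and Opalin at 0 counts. It held Mobp at 84.96, Mbp at 42.8, Cnp at 39.3, Mal at 25.2 and Ermn at 10.6 CPM. Mag was at 5.22, Tspan2 at 4.23 and Cldn11 at 2.83 CPM.

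Mbp encodes myelin basic protein, which compacts the sheath, and lies on chromosome 18 at 82475146 to 82585637 on the plus strand. Counts per gene do not separate its classic transcripts from the longer golli transcripts of the same locus. Mbp measured 328 and 94.3 CPM (female, then male) in injured libraries at day 1, 302 and 1026 CPM at day 4, 436 and 308 CPM at day 7 and 99.5 and 884 CPM at day 14. The non-injured libraries held 2491 and 577 CPM at day 1, 574 and 3377 CPM at day 4, 443 and 722 CPM at day 7 and 42.8 and 1458 CPM at day 14. The injured library was lower in 7 of 8 pairs, with the day 14 female pair the exception, and the 2 sides overlapped.

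The mean effect on Mbp was -1.12 on the log2 scale (SE 0.24, adjusted p = 0.0135). At day 1 the fall was -2.77 (SE 0.50, adjusted p = 0.0414). The mean effect lost its call without the day 1 female pair (-1.08, adjusted p = 0.0886), the day 1 male pair (-1.17, adjusted p = 0.0690), the day 7 male pair (-0.97, adjusted p = 0.0689) or the day 14 male pair (-0.84, adjusted p = 0.0652).

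Mobp encodes a small basic protein of compact myelin and lies on chromosome 9 at 120149707 to 120181484 on the plus strand. Injured libraries held 123 and 42.0 CPM (female, then male) at day 1, 83.1 and 272 CPM at day 4, 101 and 166 CPM at day 7 and 105 and 230.1 CPM at day 14. Non-injured libraries held 753 and 176 CPM at day 1, 181 and 762 CPM at day 4, 133 and 458 CPM at day 7 and 84.96 and 249 CPM at day 14. As for Mbp, 7 of 8 pairs were lower at the wound, the day 14 female pair was higher, and the sides overlapped. Mobp fell by 1.12 on the log2 scale in the mean effect (SE 0.18, adjusted p = 0.00387) and by 2.34 at day 1 (SE 0.38, adjusted p = 0.0299). Its mean effect was called in each of the 8 fits that left out a pair (-1.25 to -0.99). The day 1 calls of both Mbp and Mobp were lost without the day 1 female, day 1 male, day 7 female, day 7 male or day 14 male pair. Fewer of all genes were called at day 1 in those fits than in the full fit. Leaving out 1 pair moved the day 1 estimate between -2.98 and -2.61 for Mbp and between -2.67 and -2.06 for Mobp.

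**Figure D2:**
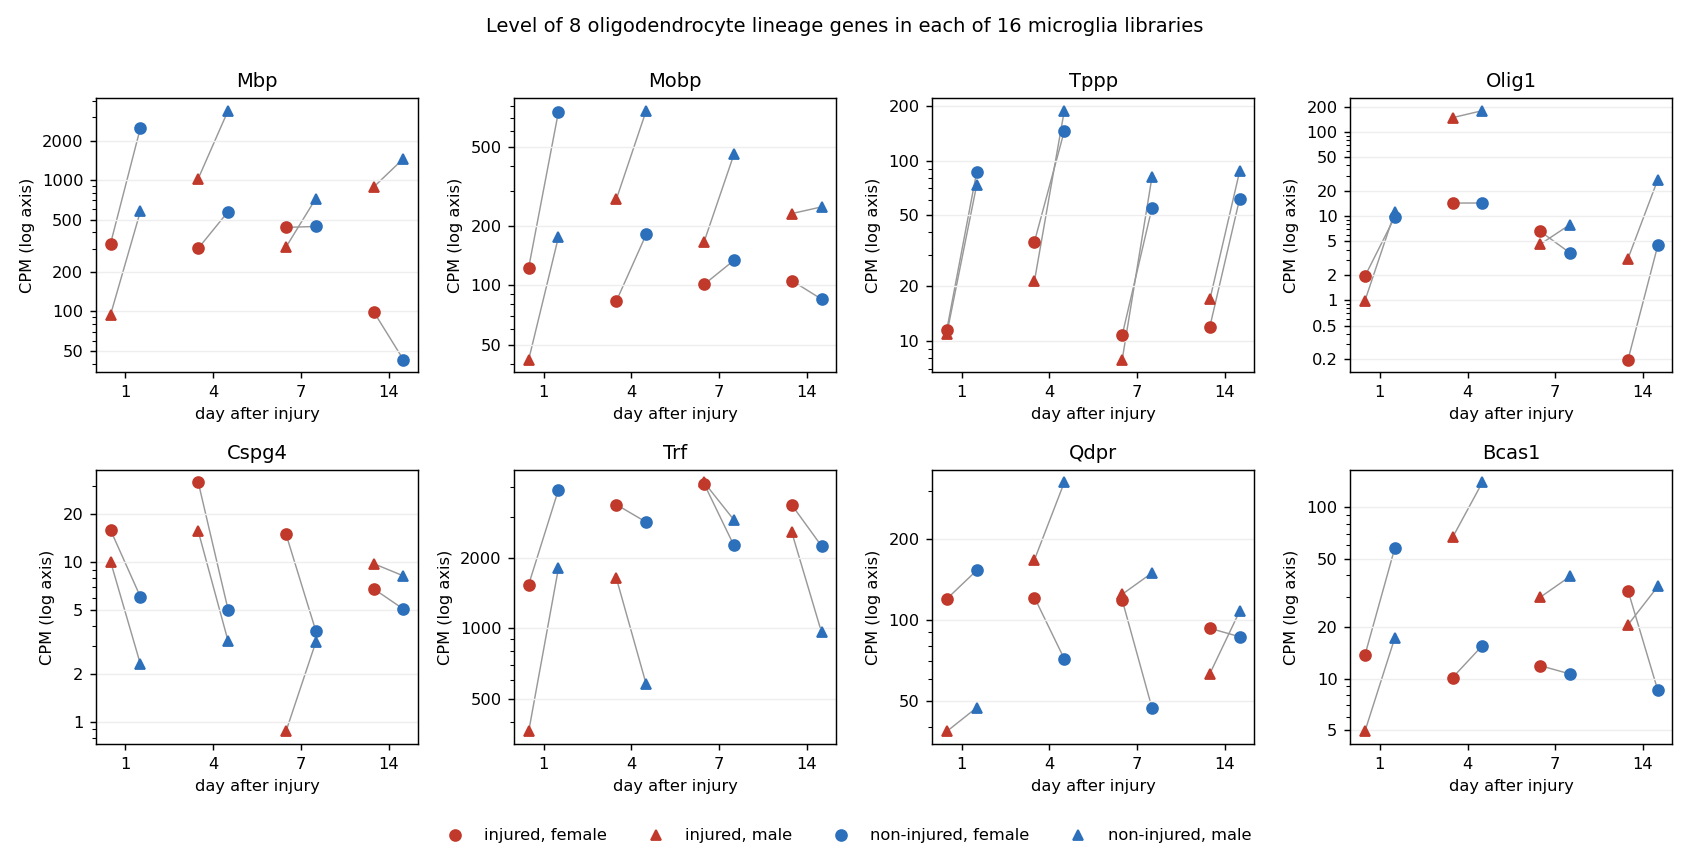
CPM on a log axis for 8 members in each of the 16 libraries, by day after injury, with injured libraries in red left of non-injured libraries in blue, circles for females, triangles for males and a line joining each pair. Tppp shows all red points (7.83 to 35.4 CPM) below all blue ones (54.7 to 189 CPM), while the sides overlap for the other 7 genes.

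The fall was not shared by the whole sheath class. At day 1, 3 of its 11 members fell by edgeR's quasi-likelihood test, edgeR's only calls among the 32, against 1.05% of all genes called that day (0.58% lower and 0.472% higher). At day 4 edgeR called only Tppp, lower at the wound, with 2.04% of all genes called (0.521% lower and 1.52% higher), and at day 7 edgeR again called only Tppp, lower, with 0.374% called (0.0559% lower and 0.318% higher). At day 14, 0 of the 32 members were called by edgeR, with 0.0594% of all genes called (0.014% lower and 0.0455% higher). At an unadjusted p under 0.05 there were 6 of the 32 members and 4723 of the 28597 genes tested. The 8 other sheath members gave no call at any day in edgeR. The split of all called genes between higher and lower depended on scaling at days 4 and 7: with median-ratio factors it was 357 higher and 269 lower at day 4, against 435 and 149, and 51 higher and 40 lower at day 7, against 91 and 16.

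The 2 other tools run on the same libraries gave partly different calls. DESeq2 called 9 of 32 at day 1, against 8.61% of all genes: Mbp, Mobp, Tppp, Tspan2, Ugt8a, Trf, Olig1 and Bcas1 were lower and Cldn11 was higher at the wound. At day 4 DESeq2 called Mbp, Mobp, Tppp and Ptgds, all lower, against 6.56% of all genes, and at day 7 Mobp, Tppp and Pdgfra, all lower, against 7.47%. At day 14 it called Tppp and Olig1 as lower and Gjc3, Sox10 and Gpr17 as higher, against 7.4% of all genes. In the mean effect DESeq2 called 8, against 22.5% of all genes: Mbp, Mobp, Tppp, Ptgds and Olig1 were lower and Cldn11, Apod and Cspg4 were higher. limma on log2(TPM + 1) called only members that were lower at the wound. At day 1 these were Mbp, Mobp, Tppp and Olig1 (1.98% of all genes called), at days 4 and 7 Tppp alone (1.12% and 0.626%), at day 14 Tppp and Olig1 (0.402%), and in the mean effect Mbp, Mobp, Tppp, Cryab, Ptgds, Olig1 and Bcas1 (15.3%). Counts below are edgeR's unless another tool is named.

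Mog and Cldn11 are given as examples of sheath genes with estimates above 0, chosen after their values were seen, and neither passed the test in the mean effect. Mog encodes a glycoprotein of the outermost myelin layer. It measured 0.049 to 49.5 CPM with a median of 5.88 CPM in injured libraries, and 0 to 12.97 CPM with a median of 3.78 CPM in non-injured libraries. Mog was higher in 6 of 8 injured libraries than in their pair, but its mean effect of 1.06 (SE 0.65, adjusted p = 0.332) missed the threshold, and leaving out 1 pair moved the estimate between -0.18 (day 1 female) and 3.03 (day 14 male). Cldn11 encodes the claudin of myelin tight junctions. It measured 2.87 to 198 CPM with a median of 14.1 CPM in injured libraries, and 0.648 to 16.9 CPM with a median of 3.10 CPM in non-injured libraries, and was higher in 7 of 8 pairs. Its mean effect was 1.72 (SE 0.52, adjusted p = 0.0526), which missed the threshold, and it was called in 6 of 17 alternatives, among them DESeq2 (1.65, adjusted p = 0.00217) and the fit without the day 4 female pair (2.16, adjusted p = 0.00557).

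The amount of Mbp relative to Mog varied widely on both sides. Per Mog count there were 17.3 to 1917 Mbp counts in injured libraries, with a median of 53.8, and 55.7 to 1086 in non-injured libraries, with a median of 445. The ratio of 1917 rests on 2 Mog counts, in the day 1 male injured library, and the day 14 female non-injured library had 0 Mog counts and gave no ratio. The other 6 sheath genes had mean effects between -0.53 for Tspan2, a tetraspanin, and 1.05 for Opalin, a membrane glycoprotein. Cnp, which encodes a cyclic nucleotide phosphodiesterase of noncompact myelin, measured 31.8 to 198 CPM in injured and 39.3 to 154 CPM in non-injured libraries and was higher in 6 of 8 pairs (0.25, adjusted p = 0.494).

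**Figure D3:**
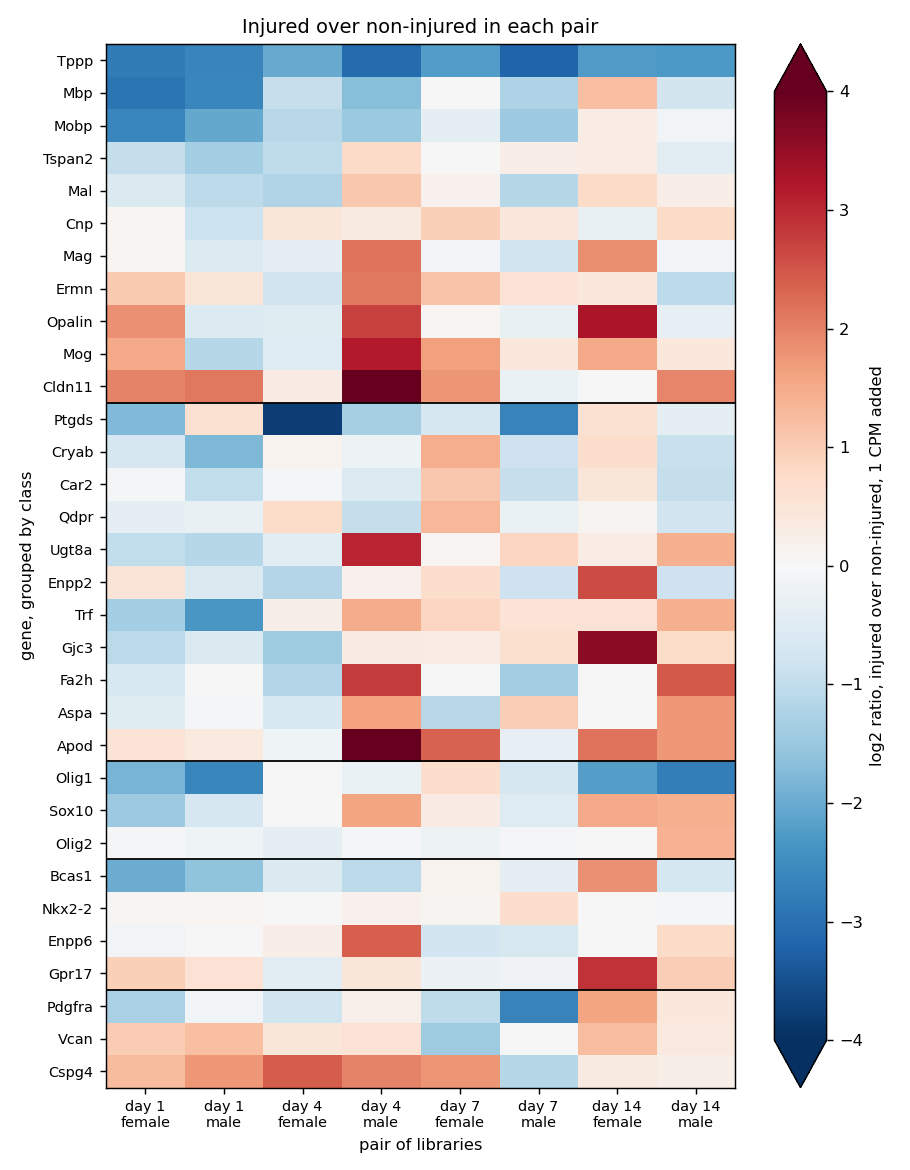
Log2 ratio of injured over non-injured CPM, with 1 CPM added, for 32 genes (rows, grouped by class) in 8 pairs of libraries (columns, by day and sex), red where the injured library was higher, and colours ending at 4 in both directions. The Tppp row is blue in all 8 pairs, and the day 4 male column is red for 8 of the 11 sheath genes.

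Among the enzymes and soluble proteins, 0 of 11 were called at any day or in the mean effect by edgeR. In edgeR's mean effect 2 of the 11 had an unadjusted p under 0.05, as did 8187 of the 28597 genes tested. In the mean effect DESeq2 called Apod and Ptgds and limma called Cryab and Ptgds. At single days DESeq2 called Ugt8a and Trf at day 1, Ptgds at day 4 and Gjc3 at day 14. Their median mean effect was 0.08. Trf, which encodes the iron carrier transferrin, made by oligodendrocytes and choroid plexus in the brain, had the highest level of all members per length, at a median of 1288 TPM (transcripts per 1000000, a measure that allows for gene length) in injured and 1684 TPM in non-injured libraries. It alone supplied 32.01% to 82.5% of the members' summed CPM in injured libraries and 9.04% to 82.7% in non-injured libraries.

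Trf measured 1538 and 363 CPM (female, then male) in injured libraries at day 1, 3372 and 1637 CPM at day 4, 4141 and 4198 CPM at day 7 and 3363 and 2571 CPM at day 14. In non-injured libraries it measured 3907 and 1810 CPM at day 1, 2840 and 578 CPM at day 4, 2260 and 2905 CPM at day 7 and 2245 and 961 CPM at day 14. Both day 1 pairs were lower at the wound and the other 6 pairs were higher. The day 1 estimate was -1.83 (SE 0.39, adjusted p = 0.0652). It was called in 7 of 17 alternatives, among them DESeq2 (-1.75, adjusted p = 0.00226) and the fits without the day 4 female pair (-1.76, adjusted p = 0.0165) or the day 4 male pair (-1.83, adjusted p = 0.0148). The test that the 4 day effects are equal gave an adjusted p of 0.675, so the change of direction between days did not pass. The day 4 male non-injured library, highest for Mbp, was the lowest non-injured library for Trf. Its choroid plexus markers summed to 1.473 CPM, near the median of 1.55 CPM in non-injured libraries (0.300 to 3.67 CPM). The part of choroid plexus cells in the Trf level was not tested.

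Qdpr, which encodes the dihydropteridine reductase that regenerates tetrahydrobiopterin, was among the more abundant members. It measured 119 and 38.5 CPM (female, then male) in injured libraries at day 1, 121 and 167 CPM at day 4, 118 and 124 CPM at day 7 and 92.9 and 63.0 CPM at day 14. The non-injured libraries held 152 and 47.1 CPM at day 1, 71.5 and 324 CPM at day 4, 47.0 and 149 CPM at day 7 and 86.4 and 108 CPM at day 14. The wound side was higher in 3 pairs and lower in 5, and the sides overlapped.

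Apod and Ptgds, both lipocalins and both chosen after their values were seen, had estimates of opposite sign. Apod, the lipid carrier apolipoprotein D, measured 5.04 to 517 CPM with a median of 29.2 CPM in injured and 3.58 to 70.7 CPM with a median of 12.3 CPM in non-injured libraries. Its mean effect was 1.504 (SE 0.57, adjusted p = 0.112), and without the day 4 male injured library the injured mean was 28.6 CPM in place of 89.7 CPM. Ptgds, which makes prostaglandin D2, measured 6.00 to 31.1 CPM with a median of 15.7 CPM in injured and 9.16 to 94.2 CPM with a median of 36.9 CPM in non-injured libraries (-1.24, SE 0.41, adjusted p = 0.0742). The lipid enzymes Ugt8a and Fa2h and the aspartoacylase gene Aspa had medians of 1.11 to 2.97 CPM in injured and 1.18 to 1.65 CPM in non-injured libraries, where 3 counts correspond to 0.0615 to 0.123 CPM.

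Of the 3 lineage factors, Olig1 fell in the mean effect and Sox10 and Olig2 gave no call in edgeR. DESeq2 also called Olig1 as lower at days 1 and 14 and Sox10 as higher at day 14. Olig1, a basic helix-loop-helix factor, lies on chromosome 16 at 91269772 to 91271933 on the plus strand. Injured libraries held 1.92 and 0.984 CPM (female, then male) at day 1, 14.3 and 148 CPM at day 4, 6.57 and 4.63 CPM at day 7 and 0.196 and 3.12 CPM at day 14. Non-injured libraries held 9.72 and 11.1 CPM at day 1, 14.3 and 179 CPM at day 4, 3.64 and 7.94 CPM at day 7 and 4.48 and 27.2 CPM at day 14. Olig1 was lower in 7 of 8 pairs, with nearly equal values in the day 4 female pair, and higher in the day 7 female pair. Its mean effect was -1.60 (SE 0.29, adjusted p = 0.00522), with day estimates of -2.89 at day 1 (adjusted p = 0.0572) and -3.37 at day 14 (adjusted p = 0.0903). The mean effect was called in each of the 8 fits that left out a pair. Sox10 measured 0.697 to 24.5 CPM in injured and 0.288 to 7.60 CPM in non-injured libraries, and Olig2 lay under 2 CPM in all libraries but the day 4 male pair, where it reached 22.5 CPM in the injured and 23.1 CPM in the non-injured library.

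The 4 premyelinating members gave no call at any day or in the mean effect by edgeR. In edgeR's mean effect 1 of the 4 had an unadjusted p under 0.05, as did 8187 of the 28597 genes tested. DESeq2 called Bcas1 at day 1 and Gpr17 at day 14, and limma called Bcas1 in the mean effect. Bcas1, a marker of newly forming myelinating oligodendrocytes and the most abundant of them, measured 13.7 and 4.92 CPM (female, then male) in injured libraries at day 1, 10.1 and 66.5 CPM at day 4, 11.9 and 29.8 CPM at day 7 and 32.6 and 20.6 CPM at day 14. In non-injured libraries it measured 57.4 and 17.2 CPM at day 1, 15.6 and 139 CPM at day 4, 10.6 and 39.4 CPM at day 7 and 8.55 and 34.4 CPM at day 14. It was lower in 6 of 8 pairs (-0.60, SE 0.30, adjusted p = 0.222). Gpr17, a receptor that marks committed precursors, Enpp6, a choline phosphodiesterase, and the homeobox factor Nkx2-2 had medians of 1.79, 1.30 and 0.127 CPM in injured and 1.08, 1.09 and 0.057 CPM in non-injured libraries.

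Cspg4, which encodes the NG2 proteoglycan of precursors and of pericytes, was the only member that rose in edgeR's mean effect. It lies on chromosome 9 at 56865033 to 56899870 on the plus strand. Injured libraries held 15.9 and 10.1 CPM (female, then male) at day 1, 31.7 and 15.6 CPM at day 4, 15.1 and 0.874 CPM at day 7 and 6.83 and 9.81 CPM at day 14. Non-injured libraries held 6.09 and 2.31 CPM at day 1, 5.06 and 3.22 CPM at day 4, 3.73 and 3.16 CPM at day 7 and 5.09 and 8.22 CPM at day 14. The wound side was higher in 7 of 8 pairs and lower in the day 7 male pair.

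The mean effect on Cspg4 was 1.28 (SE 0.37, adjusted p = 0.0466). It kept its call without the day 4 male or the day 7 male pair and lost it without any of the other 6, for which the adjusted p ran up to 0.323 and the estimate down to 0.67, reached without the day 7 female pair. With median-ratio factors it was 1.12 (adjusted p = 0.0616), and with limma on log2(TPM + 1) 0.54 (adjusted p = 0.262). Without the filter on low counts the adjusted p was 0.0721, and without pairing 0.101, so that 12 of 17 alternatives lost the call, while DESeq2 kept it (1.03, adjusted p = 0.0364). Markers of mural cells, which include pericytes, were lower in the injured library of all 8 pairs, at 3.84 to 73.5 CPM in injured and 11.4 to 258 CPM in non-injured libraries, and 5 of 8 fell in the mean effect. Monocyte markers were higher in all 8 pairs, at 180.1 to 2071 CPM in injured and 4.23 to 138 CPM in non-injured libraries, and 9 of 9 rose. Their part in the Cspg4 result was not tested. Pdgfra, the receptor of precursors, measured 0 to 6.53 CPM in injured and 0 to 5.50 CPM in non-injured libraries, and the proteoglycan gene Vcan measured 0.510 to 11.6 CPM in injured and 0 to 6.67 CPM in non-injured libraries. Neither was called by edgeR, and DESeq2 called Pdgfra as lower at day 7.

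Set against each other, the summed sheath members were scarcer at the wound relative to the premyelinating and precursor members in all 8 pairs. The summed level of the 11 sheath genes ran from 215 to 2005 CPM with a median of 680.2 CPM in injured libraries, and from 277 to 4572 CPM with a median of 1299 CPM in non-injured libraries, and was lower in 7 of 8 pairs. The 3 precursor genes summed to 1.38 to 36.3 CPM with a median of 19.4 CPM in injured and 5.09 to 16.3 CPM with a median of 9.51 CPM in non-injured libraries, and were higher in 7 of 8 pairs. The 4 premyelinating genes summed to 7.70 to 84.3 CPM with a median of 20.3 CPM in injured and 8.55 to 147 CPM with a median of 27.96 CPM in non-injured libraries, and were lower in 7 of 8 pairs. Added to the precursor genes they gave 30.6 to 109.7 CPM in injured and 13.6 to 158 CPM in non-injured libraries, higher in 4 pairs and lower in 4. The sheath sum was 7.02 to 27.4 times the sum of the 7 premyelinating and precursor genes in injured libraries, and 20.3 to 53.1 times in non-injured libraries. The difference in the log2 of this ratio, injured minus non-injured, was -1.41 and -2.28 at day 1 (female, then male), -1.48 and -0.67 at day 4, -0.30 and -0.52 at day 7, and -1.52 and -0.40 at day 14.

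This pattern depended on which genes were summed. With sums of TPM the ratio was lower at the wound in all 8 pairs. Without Mbp and Bcas1, the highest gene of each sum, it was lower in 7 pairs and higher in 1. Without Mbp and Mobp the ratio was lower in 5 pairs and higher in 3, with a mean log2 difference of -0.30 in place of -1.07. Without Cspg4 it was lower in 7 pairs. Against the precursor genes alone it was lower in 7 and higher in the day 7 male pair, at 1.59. The choices to leave out Mbp and Mobp, to leave out Cspg4 and to use the precursor genes alone were made after seeing the data. The median log2 ratio over the 11 sheath genes, with 1 CPM added, was above 0 in 4 pairs and below 0 in 4, and that of the 3 precursor genes was above 0 in 6 and below 0 in 2. The markers of neurons, endothelial cells and mural cells were each lower in the injured library of all 8 pairs. Endothelial markers summed to 48.3 to 278 CPM in injured and 141 to 1022 CPM in non-injured libraries, and 6 of 9 fell in the mean effect. The part of these cells in the ratio was not tested. No p-value is attached to these sums, and fewer cells of a type and less RNA per cell cannot be told apart in them.

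**Figure D4:**
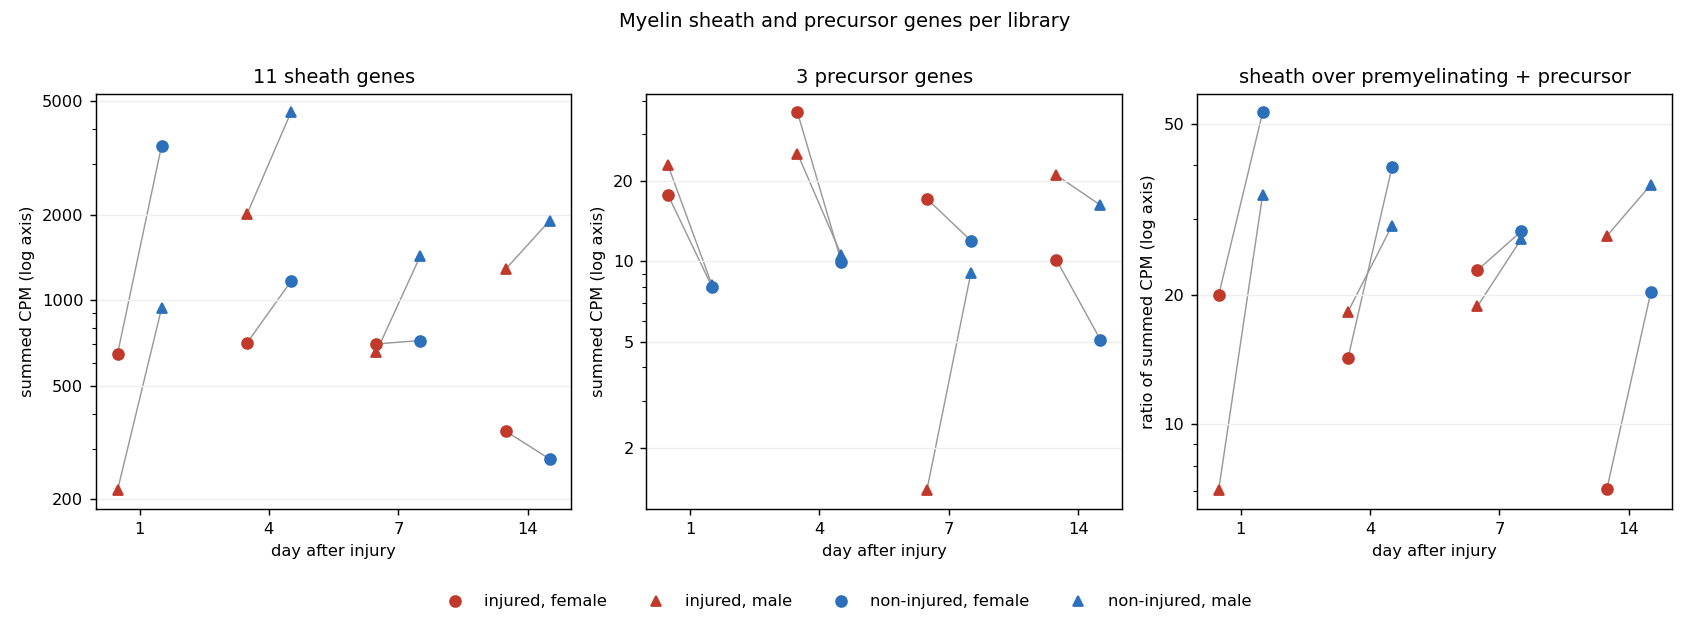
Summed CPM of the 11 sheath genes, summed CPM of the 3 precursor genes, and the ratio of the sheath sum to the sum of the 7 premyelinating and precursor genes, each on a log axis by day after injury, with injured libraries in red left of non-injured libraries in blue, circles for females, triangles for males and lines joining pairs. The ratio is lower in the injured library of all 8 pairs, 7.02 to 27.4 in injured and 20.3 to 53.1 in non-injured libraries.

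No member's injury effect differed between days by edgeR's quasi-likelihood test (0 of 32 called and 0 of 28597 genes), nor between females and males (0 of 32 and 0 of 28597 genes). At an unadjusted p under 0.05 there were 5 members and 1819 of all genes for days. For the sexes there were 5 members and 2737 of all genes. Within the injured libraries, 0 of 32 members differed between days, while 0.104% of 22040 genes were called. An unadjusted p under 0.05 was reached there by 5 members and 1429 genes. Within the non-injured libraries, 0 of the 31 members tested differed, and 0 of 24622 genes were called. An unadjusted p under 0.05 was reached there by 2 members and 352 genes. Nkx2-2 did not pass the filter in the non-injured libraries. DESeq2 and limma were not run for these 4 tests.

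Genes of the lineage outside the set also moved in both directions. Of 19 other genes of myelinating cells, 1 rose and 0 fell in the mean effect, with a median of 0.38. That gene was Klk6, a secreted serine protease named after its values were seen, at 1.01 to 65.7 CPM in injured and 0 to 1.16 CPM in non-injured libraries. Of 12 other precursor genes, 4 fell and 0 rose, with a median of -1.27. The proteoglycan gene Bcan fell most among them, at 0 to 28.6 CPM with a median of 4.49 CPM in injured and 5.46 to 387 CPM with a median of 23.9 CPM in non-injured libraries (-3.18, SE 0.47, adjusted p = 0.00198). Bcan is also made by astrocytes, 3 of whose 10 markers fell, and their part in its fall was not tested.

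In the authors' deposited tables, 3 members were higher and 7 lower at day 1 at an adjusted p under 0.05, against 3.34% higher and 3.79% lower of the 47831 genes with a p-value there. At day 4 the authors' deposited table had 3 members higher and 2 lower, against 2.81% and 4.93% of genes. At day 7 the authors' deposited table had 0 higher and 3 lower, against 2.28% and 7.46%, and at day 14 it had 2 higher and 2 lower, against 3.87% and 4.24%. The authors' deposited tables list Tppp as lower at all 4 days, with log2 changes of -2.75, -2.90, -3.29 and -2.37 at days 1, 4, 7 and 14. The same deposited tables list Cspg4 as higher at day 1 (1.68) and day 4 (2.18), and Pdgfra as lower at day 7 (-5.11).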

How the data were processed

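RNA of sorted cells was made into cDNA with SMART-Seq v4 and into libraries with Nextera XT, per the labels' protocols; this chemistry is unstranded. Salmon 1.0.0 and DESeq2 1.26.0 appear in the submitters' processing notes, and a genome build is not given in the sources used here. Expected counts (estimated counts per gene) were deposited by the authors with TPM values and with comparison tables that hold, per the file headers, a log2 fold change, its standard error (a score) and an adjusted p-value.

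The 2 columns of each group differed by about counting noise (median chi-square of 0.475 to 0.639 over 16 groups, against 0.455 for noise and 31.5 to 112 between sexes), so they were summed and rounded. The test was edgeR 4.0.16 in R 4.3.3 (quasi-likelihood, TMM factors, filterByExpr at a minimum count of 10, 28597 genes), with a mean for each of the 8 pairs and an injury effect for each of the 4 days; 4 residual degrees of freedom were left. Calls were made at an adjusted p (Benjamini-Hochberg over all genes tested) under 0.05. A standard error is the log2 change divided by the root of its F, which is not reliable where the change is very near 0. CPM uses TMM-scaled library sizes. Alternatives used DESeq2 1.42.0 and limma 3.58.1 (pseudocount of 1 TPM), and the fit was tested on simulated data. Class sums were described without a test.

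Members and lists were chosen with earlier results of these data known. Values in every library are printed for members called in a day or mean effect, the 4 of highest mean CPM and the highest of each class. Positions are from GENCODE M21, which held 54487 of the 55385 IDs and all 32 members. Among members printed in every library, Mbp, Tppp, Olig1, Qdpr and Bcas1 overlap genes on the opposite strand, and Mobp and Trf a gene model on the same strand. Overlaps were taken from gene starts and ends, and exons were not compared. Unstranded reads from a shared stretch cannot be assigned by strand, and their number was not tested. All 32 count columns belong to a sample.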

Additional observations from a re-analysis of the deposited data

Results flagged for a closer look

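Among 26 sets of 8 libraries (8 named members and 5 class sums on each side), 9 had a library set far from the other 7. Chance flags about 1 independent set in 20 where values are normally distributed. The rule was applied to CPM without a log, so that rate may not hold here. The sets are not independent: Olig1 is part of the summed lineage factors and Bcas1 is part of the summed premyelinating genes. All 9 were libraries of the day 4 male pair, and each was the highest of its side. In the injured library these were Olig1 at 148 CPM, Bcas1 at 66.5 CPM, the summed lineage factors at 195 CPM and the summed premyelinating genes at 84.3 CPM. In the non-injured library they were Olig1 at 179 CPM, Qdpr at 323.5 CPM, Bcas1 at 139 CPM, the summed lineage factors at 209.6 CPM and the summed premyelinating genes at 147 CPM. The non-injured library of this pair also held the most neuronal, astrocyte and mitochondrial transcripts, whose part in these values was not tested.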

How the results depend on the processing

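The number of members called differed between the fits, and so did the number of all genes called. Members called numbered 3, 1, 1 and 0 at days 1, 4, 7 and 14 and 5 in the mean effect. Without the filter on low counts they were 0 at days 1, 4 and 7, and 3 members differed between days in injured libraries. Without pairing of the sides they were 0 at days 1, 4 and 7 and 1 in the mean effect. DESeq2 called 9, 4, 3, 5 and 8, and limma on log2(TPM + 1) called 2 at day 14. Estimating the dispersion trend before the fit, an alternative chosen after seeing the data, gave 8 at day 1, 3 at day 4 and 3 at day 14. Of all genes, that fit called 1487 at day 1, 1344 at day 4 and 1009 at day 14. Leaving out both the day 4 male and the day 14 female pair, likewise chosen later, gave 6 at day 1 and 0 at day 4. The 32 columns as separate samples gave 26, 27, 23, 25 and 24 calls, both with the replicate number as a block and without it. These fits take columns that differ by about counting noise as replicates, so their calls give no added support. Across genes, the differences between the 2 columns correlated at -0.029 to 0.062 between the sides of a pair. Differences of about counting noise could correlate near 0 either way, so this cannot tell whether the numbers pair the samples. They were not taken to do so.

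Leaving out each pair in turn gave 0 to 5 members at day 1, 0 to 2 at day 4, 0 to 1 at day 7, 0 to 1 at day 14 and 3 to 6 in the mean effect, where Tppp, Mobp and Olig1 were called each time. The number of all genes called at each day also moved widely over these fits, so a change in the member count is not particular to the members. With each pair left out in turn, the mean log2 difference of the sheath to premyelinating and precursor ratio lay between -1.18 and -0.90, against -1.07. It was -0.30 without Mbp and Mobp, chosen after seeing the data. The mean effect on Mog ran between -0.18 and 3.03 over the same fits, against 1.06. Olig1 lost its mean call without pairing, and Mobp likewise. Over all genes, the mean effect called 4496, against 1801 without pairing, 1758 to 4992 without 1 pair and 12136 with separate columns. The 301, 584, 107 and 17 genes called at days 1, 4, 7 and 14 became 101, 210, 16 and 2 without the filter, 2, 5, 0 and 7 without pairing, and 2463, 1876, 2136 and 2115 with DESeq2. Median-ratio factors moved the median mean effect of all genes to -0.44, against -0.32.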
